A study of Mus musculus with 16 samples.

Results

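Alcohol dehydrogenases and aldehyde dehydrogenases were followed in B16F10 melanoma allografts through 10 genes chosen by symbol: Adh1, Adh5, Adh7, Aldh1a1, Aldh1a3, Aldh1b1, Aldh2, Aldh3a1, Aldh3a2 and Aldh9a1. They are 10 of the 45777 genes in the deposited table, and all 10 were found there. B16F10 is a melanoma cell line derived from C57BL/6 mice, and every tumor of the study, controls included, grew from it. Lean hosts were C57BL/6J mice and obese hosts were C57BL/6J-ob/ob mice, which make no functional leptin. Both were injected under the skin of the flank at 6 weeks of age. The 4 groups were lean tumors pre-therapy, lean tumors after etoposide (ETS), obese tumors pre-therapy and obese tumors after ETS, with 4 tumors each. The labels call the tumors without ETS ctrl, and the study calls them pre-chemotherapy. Whether they got vehicle, and when they were taken, is not given in the sources used here. If they were taken before treatment, an ETS effect cannot be told apart from a difference in tumor age or size. ETS, a topoisomerase inhibitor that breaks DNA, was given into the peritoneum in 5 injections of 20 mg per kg. Whole tumors were sequenced, so each value sums melanoma cells and the host cells among them, and a single line stands for melanoma here.

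Alcohol dehydrogenases oxidise alcohols to aldehydes with NAD+, and aldehyde dehydrogenases oxidise the aldehydes further to acids. Together these enzymes clear ethanol, acetaldehyde and formaldehyde, remove the reactive aldehydes that lipid peroxidation leaves, and turn retinol into retinoic acid. Several of the aldehydes they clear, formaldehyde and acetaldehyde among them, can crosslink DNA, and Aldh1a1 and Aldh1a3 are widely used as markers of stem-like tumor cells.

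The counts in the gene table, which the authors made from stranded poly(A) RNA libraries, summed to between 47199949 and 61655287 per tumor. Any gene that had no read in 1 or more tumors was set aside, which left 16209 genes and 8 of the 10 members. Aldh1a1 and Aldh3a1 were the members lost, and they are described from their counts. Levels are given as CPM (counts relative to the TMM-scaled library size) within a gene, and as the deposited TPM, which is per transcript length, between genes. Differences were tested in edgeR by quasi-likelihood with Benjamini-Hochberg adjustment over the 16209 genes, and a gene was called at an adjusted p under 0.05. The labels number the tumors but do not say that each came from its own mouse, so the p-values measure the spread between these samples.

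On the TPM scale, 3 members made up most of the family's RNA. Adh5 was at 114 ± 5.07 TPM (mean ± SD, n = 4) in lean tumors pre-therapy, and Aldh2 and Aldh9a1 were at 76.3 ± 6.28 and 76.3 ± 2.64 TPM, levels that did not differ beyond their spread. Aldh3a2 followed at 22.9 ± 1.01 TPM, and each other member stayed below 5 TPM in every lean tumor pre-therapy. Together Aldh2, Adh5 and Aldh9a1 held 88.8 ± 0.65% of the summed TPM of the members in that group, 88.6 ± 0.82% in lean tumors after ETS, 89.7 ± 1.08% in obese tumors pre-therapy and 85.9 ± 1.13% in obese tumors after ETS. The sum itself was 300.5 ± 4.68 TPM in lean tumors pre-therapy, 313 ± 28.9 TPM in lean tumors after ETS, 331 ± 16.3 TPM in obese tumors pre-therapy and 307 ± 13.4 TPM in obese tumors after ETS. In lean tumors after ETS the order was Adh5 (120 ± 6.87 TPM) and Aldh2 (109 ± 17.2 TPM), whose ranges overlapped, and then Aldh9a1 (48.0 ± 5.08 TPM). Obese tumors had Adh5 first (143 ± 14.4 TPM pre-therapy and 119 ± 5.91 TPM after ETS), followed by Aldh9a1 (83.6 ± 4.95 TPM) and Aldh2 (70.5 ± 9.82 TPM) pre-therapy and by Aldh2 (79.9 ± 7.52 TPM) and Aldh9a1 (64.8 ± 15.3 TPM) after ETS, with overlapping ranges of Aldh2 and Aldh9a1 each time. The share of Aldh2 in the sum was 25.4 ± 1.80% in lean tumors pre-therapy and 34.8 ± 2.49% after ETS, against 21.2 ± 2.27% and 26.1 ± 3.54% in obese tumors.

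**Figure D1:**
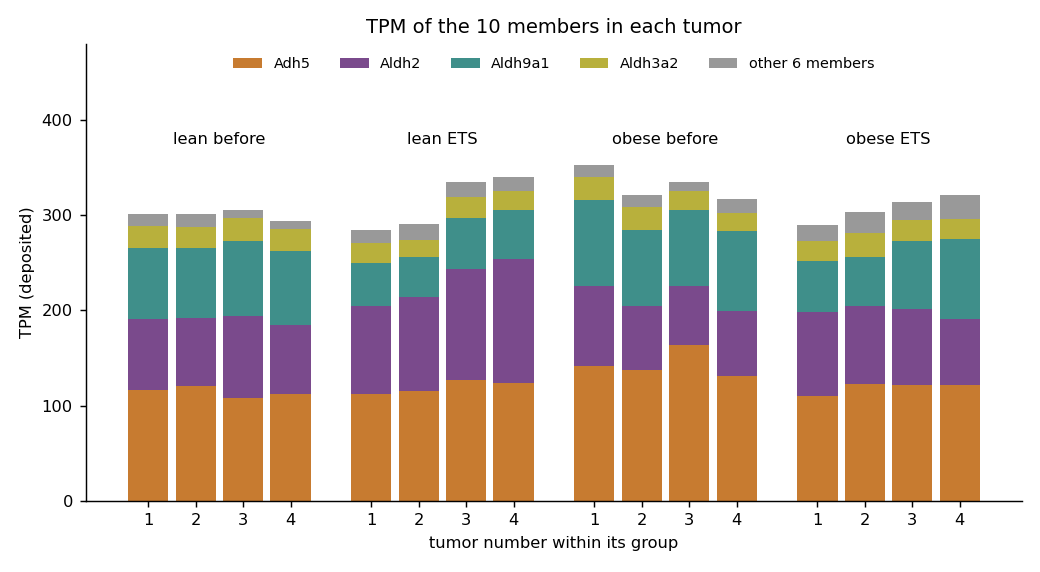
Stacked bars give the deposited TPM of Adh5, Aldh2, Aldh9a1, Aldh3a2 and the other 6 members in each of the 16 tumors, grouped by host and treatment. The summed height lay between 285 and 353 TPM in every tumor, while the Aldh2 segment was tallest in lean tumors after ETS (92.4 to 130.3 TPM).

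The members lie on 7 chromosomes of GRCm38.p6, the patched form of the mm10 assembly that the authors used. Adh7 (gene ID 11529, chr3:138198064-138232042), Adh1 (11522, chr3:138277585-138290698) and Adh5 (11532, chr3:138437200-138455499) belong to a cluster of 7 annotated Adh genes, all within 257436 bases of chromosome 3 and, for these 3, on the plus strand. Aldh3a1 (11670, chr11:61208510-61218418, plus strand) and Aldh3a2 (11671, chr11:61223417-61267528, minus strand) are neighbours whose ends are 4998 bases apart. Aldh1a1 (11668, chr19:20492583-20643463), Aldh1b1 (72535, chr4:45799022-45804608) and Aldh9a1 (56752, chr1:167349963-167368530) are on the plus strand, and Aldh1a3 (56847, chr7:66390892-66427477) and Aldh2 (11669, chr5:121566027-121593824) on the minus strand. The longest coding transcript of Aldh1b1 has only 2 exons, against 9 to 16 in the other members. Aldh1a1 shares its span with the annotated genes E030003E18Rik, C730002L08Rik and Gm6684, and Adh7 with 0610031O16Rik. Use of strand information in the counting is not given in the sources used here, so reads of overlapping genes could be shared, and reads of the near-identical Aldh1a7 could be split with Aldh1a1.

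RefSeq promoter entries matched 7 of the 10 members, with 9 entries in all. The 250 bases before an annotated start are shown for 3 members, because Adh5 and Aldh9a1 responded to ETS in opposite directions in lean tumors and Aldh1b1 rose in both hosts. Capitals mark matches, on either strand, to 5 short motifs. The Ah receptor is known to bind a core that reads GCGTG. The hypoxia response element has a core that reads ACGTG. The promoter element CCAAT was searched by its name, the GC box by the letters GGGCGG, and the core of the antioxidant response element by TGACNNNGC. The sequences run 5′ to 3′ on the plus strand of GRCm38.p6, with Adh5 at its second start (chr3:138442843-138443092), Aldh1b1 at chr4:45798772-45799021 and Aldh9a1 at chr1:167349741-167349990.
Adh5: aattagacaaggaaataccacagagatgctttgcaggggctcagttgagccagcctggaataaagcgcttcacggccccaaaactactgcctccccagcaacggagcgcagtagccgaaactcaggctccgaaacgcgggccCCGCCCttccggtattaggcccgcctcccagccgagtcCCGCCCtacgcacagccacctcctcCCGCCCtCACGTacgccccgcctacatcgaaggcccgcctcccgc
Aldh1b1: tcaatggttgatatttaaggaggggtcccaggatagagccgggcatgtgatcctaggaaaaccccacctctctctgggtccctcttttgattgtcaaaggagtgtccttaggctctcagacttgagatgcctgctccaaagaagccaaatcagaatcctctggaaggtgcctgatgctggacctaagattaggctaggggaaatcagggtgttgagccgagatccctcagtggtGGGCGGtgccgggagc
Aldh9a1: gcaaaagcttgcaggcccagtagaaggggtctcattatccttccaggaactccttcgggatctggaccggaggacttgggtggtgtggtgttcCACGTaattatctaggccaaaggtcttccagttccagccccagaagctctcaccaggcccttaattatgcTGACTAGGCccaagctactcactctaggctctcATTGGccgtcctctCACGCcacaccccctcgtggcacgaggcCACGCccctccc
The Adh5 window held 21 CpG dinucleotides, a number that 16.3% of the 32851 promoters of the same length reached, with 3 GC boxes and a hypoxia core. The window before the first Adh5 start (chr3:138436950-138437199), not shown, held 2 CpG, which 81.2% of promoters reached, and no match to the 5 motifs. The Aldh1b1 window held 4 CpG and a GC box, near the median of 6 CpG over all promoters. The Aldh9a1 window held 8 CpG, the Ah receptor core at 2 places, the hypoxia core, the CCAAT element and the antioxidant core. It ends at 167349990, past the start of the annotated gene at 167349963, so its last bases, with the last Ah receptor core, lie inside the gene. Among all promoters, 28.2% held the Ah receptor core, 16.6% the hypoxia core, 33.8% the CCAAT element, 32.7% the GC box and 10.2% the antioxidant core, and these matches are letters in a window, with no measure of binding behind them.

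After ETS, lean tumors had more Aldh2, Aldh1b1, Aldh1a3 and Adh5 RNA and less Aldh9a1 RNA. Of the 8 tested members 4 rose and 1 fell, where 43.8% of all tested genes were called, 21.0% higher and 22.8% lower. In obese tumors Aldh1a3 and Aldh1b1 rose and Aldh9a1 fell, 3 of 8, where 40.2% of all tested genes were called, 21.2% higher and 19.0% lower. The median log2 fold change of the 8 members was 0.52 in lean and 0.20 in obese tumors, against -0.01 and 0.01 over all tested genes. The number called in obese tumors was 1 without the obese tumor 4 pre-therapy, where the calls of Aldh1a3 and Aldh9a1 were lost. The ETS effects of Adh5 and Aldh2 were more positive in lean than in obese tumors, which made 2 of 8 members called for a difference between hosts, where 16.4% of all tested genes were called and 6.35% in this direction (10.1% in the other). The median difference, lean minus obese, was 0.31 over the members and 0.05 over all tested genes.

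**Figure D2:**
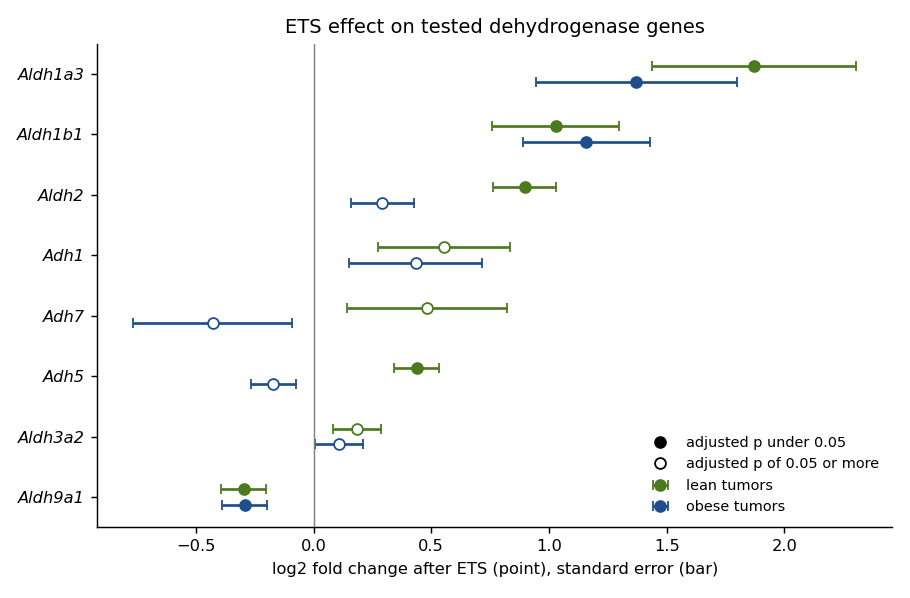
Points give the log2 fold change after ETS of each tested member in lean tumors (green) and obese tumors (blue), and bars give the standard error, with filled points for an adjusted p under 0.05. Aldh2 (0.90 against 0.29) and Adh5 (0.44 against -0.17) are set apart between hosts, while Aldh1b1 (1.03 against 1.16) and Aldh9a1 (-0.30 against -0.29) are not.

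The mitochondrial members were Aldh2, the main acetaldehyde-clearing enzyme, and its close relative Aldh1b1. Aldh2 stood at 149, 126, 142 and 126 CPM in lean tumors 1 to 4 pre-therapy and at 218, 255, 246 and 293 CPM in lean tumors 1 to 4 after ETS. All 4 tumors after ETS lay above all 4 pre-therapy (exact two-sided permutation p = 0.0286, the smallest that 4 against 4 can give). The mean rose from 136 ± 11.6 to 253 ± 30.9 CPM (SD, n = 4 each), and the log2 fold change was 0.90 (SE 0.14, edgeR adjusted p = 0.00015).

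In obese tumors 1 to 4, Aldh2 stood at 162, 128.5, 122 and 139 CPM pre-therapy and at 208, 184, 148 and 136 CPM after ETS, and these groups overlapped. The log2 fold change was 0.29 (SE 0.13, edgeR adjusted p = 0.0944), with a call when obese tumor 1 pre-therapy was left out (0.38, adjusted p = 0.0463) or obese tumor 4 after ETS (0.39, adjusted p = 0.0306), and with limma-voom (0.35, adjusted p = 0.0401). The difference between the effects, lean minus obese, was 0.60 on the log2 scale (SE 0.19, 95% interval 0.20 to 1.01, edgeR adjusted p = 0.0406). This call was near the threshold, and it was lost under 10 of the 16 omissions of a tumor (lean tumor 2, 3 or 4 pre-therapy, lean tumor 2, 3 or 4 after ETS, obese tumor 1 or 4 pre-therapy, and obese tumor 3 or 4 after ETS). There the difference ranged from 0.49 to 0.63 and the adjusted p from 0.0552 to 0.0842. On the TPM scale, log2(TPM + 1) tested with limma, the difference was 0.32 (adjusted p = 0.218).

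Pre-therapy, the hosts differed in Aldh2 by less than its spread, with 136 ± 11.6 CPM in lean and 138 ± 17.5 CPM in obese tumors. After ETS it was lower in obese tumors, 169 ± 33.2 against 253 ± 30.9 CPM (log2 difference -0.58, SE 0.13, edgeR adjusted p = 0.0264), and the ranges, 136 to 208 and 218 to 293 CPM, did not overlap. That was the only called member of 8 after ETS, where 5.58% of all tested genes were called, 3.28% higher and 2.30% lower. Without lean tumor 3 or 4 after ETS or obese tumor 3 or 4 after ETS the adjusted p was between 0.0529 and 0.0859, and with only the tumors after ETS in the fit it was 0.1002.

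Aldh1b1 rose in both hosts. Its values were 3.24, 3.78, 1.70 and 3.15 CPM in lean tumors 1 to 4 pre-therapy and 6.83, 6.95, 5.33 and 5.10 CPM after ETS, groups that did not overlap. The log2 fold change was 1.03 (SE 0.27, edgeR adjusted p = 0.00676). In obese tumors 1 to 4 it was at 5.40, 3.55, 2.43 and 4.42 CPM pre-therapy and at 10.4, 10.6, 7.30 and 7.02 CPM after ETS, again with no overlap, and the log2 fold change was 1.16 (SE 0.27, edgeR adjusted p = 0.0037). The host difference of these effects had a 95% interval from -0.93 to 0.67, which leaves room for an unequal response in either direction. After ETS every obese tumor was above every lean tumor (exact permutation p = 0.0286), although the edgeR test did not call this difference.

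Adh5 encodes the glutathione-dependent formaldehyde dehydrogenase, which also reduces S-nitrosoglutathione. Lean tumors 1 to 4 had 96.7, 88.0, 75.6 and 81.7 CPM pre-therapy and 110.4, 125.5, 112 and 115 CPM after ETS. The groups did not overlap, and the log2 fold change was 0.44 (SE 0.096, edgeR adjusted p = 0.00218). On the log2(TPM + 1) scale, where the median gene fell by 0.28 in lean tumors, the change of Adh5 was 0.07 (limma adjusted p = 0.451), or 0.34 above the median gene.

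Obese tumors 1 to 4 had 114, 108, 135 and 112 CPM pre-therapy, values that overlapped those of lean tumors after ETS, and had 108.5, 116, 94.1 and 98.5 CPM after ETS. The log2 fold change was -0.17 (SE 0.096, edgeR adjusted p = 0.166), and on the log2(TPM + 1) scale it was -0.26 (limma adjusted p = 0.0116). The difference between the ETS effects was 0.61 (SE 0.14, 95% interval 0.32 to 0.90, edgeR adjusted p = 0.00619). It was called under each of the 25 alternatives that gave it, with values between 0.33 and 0.68.

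Pre-therapy, Adh5 was higher in obese tumors, 117 ± 12.3 against 85.5 ± 9.01 CPM (log2 difference 0.46, SE 0.096, edgeR adjusted p = 0.00264), with no overlap between the groups. Adh5 and Aldh9a1 were the 2 of 8 members called in this comparison, both higher in obese tumors, where 26.4% of all tested genes were called and 13.5% were higher. The median difference over the 8 members was 0.34, against 0.02 over all tested genes. After ETS the Adh5 levels of the hosts overlapped, at 104 ± 9.76 CPM in obese and 116 ± 6.75 CPM in lean tumors. The comparisons within a time point and within a host share tumors, so the higher level in obese tumors pre-therapy and the smaller ETS effect there are not independent observations.

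Aldh9a1, whose enzyme oxidises a trimethylated aminoaldehyde on the route to carnitine, moved the other way. In lean tumors 1 to 4 it was at 110.4, 94.7, 97.1 and 103 CPM pre-therapy and at 78.2, 81.3, 83.4 and 87.2 CPM after ETS, without overlap. The log2 fold change was -0.30 (SE 0.095, edgeR adjusted p = 0.0196), and the adjusted p was 0.053 without lean tumor 1 pre-therapy and 0.0522 without lean tumor 1 after ETS. In obese tumors 1 to 4 it was at 129, 113, 118 and 131 CPM pre-therapy and at 94.0, 86.3, 99.4 and 121 CPM after ETS, where tumor 4 lay inside the earlier range. The log2 fold change there was -0.29 (SE 0.095, edgeR adjusted p = 0.023). The call in obese tumors was lost without obese tumor 1 or 4 pre-therapy or obese tumor 1 or 2 after ETS (adjusted p 0.0558 to 0.0955) as well as with edgeR's exact test (0.0757), with only the obese tumors in the fit (0.0712) and without obese tumors 1 and 2 pre-therapy together (0.0548). The host difference of the effects was close to 0 with a 95% interval from -0.29 to 0.28.

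Between hosts, Aldh9a1 was higher in obese tumors pre-therapy, 123 ± 8.55 against 101 ± 7.02 CPM (log2 difference 0.28, SE 0.095, edgeR adjusted p = 0.0423), and the groups did not overlap. This call was lost under 11 of the 16 omissions of a tumor (lean tumor 2, 3 or 4 pre-therapy, lean tumor 1, 2 or 3 after ETS, obese tumor 1, 3 or 4 pre-therapy, and obese tumor 1 or 3 after ETS), where its value ranged from 0.24 to 0.29. It was also lost with DESeq2's size factors (adjusted p = 0.0561) and on the log2(TPM + 1) scale (0.13, limma adjusted p = 0.51). After ETS the difference was 0.28 again (SE 0.095, edgeR adjusted p = 0.0869), and it was called without obese tumor 2 after ETS (0.34, adjusted p = 0.0401).

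**Figure D3:**
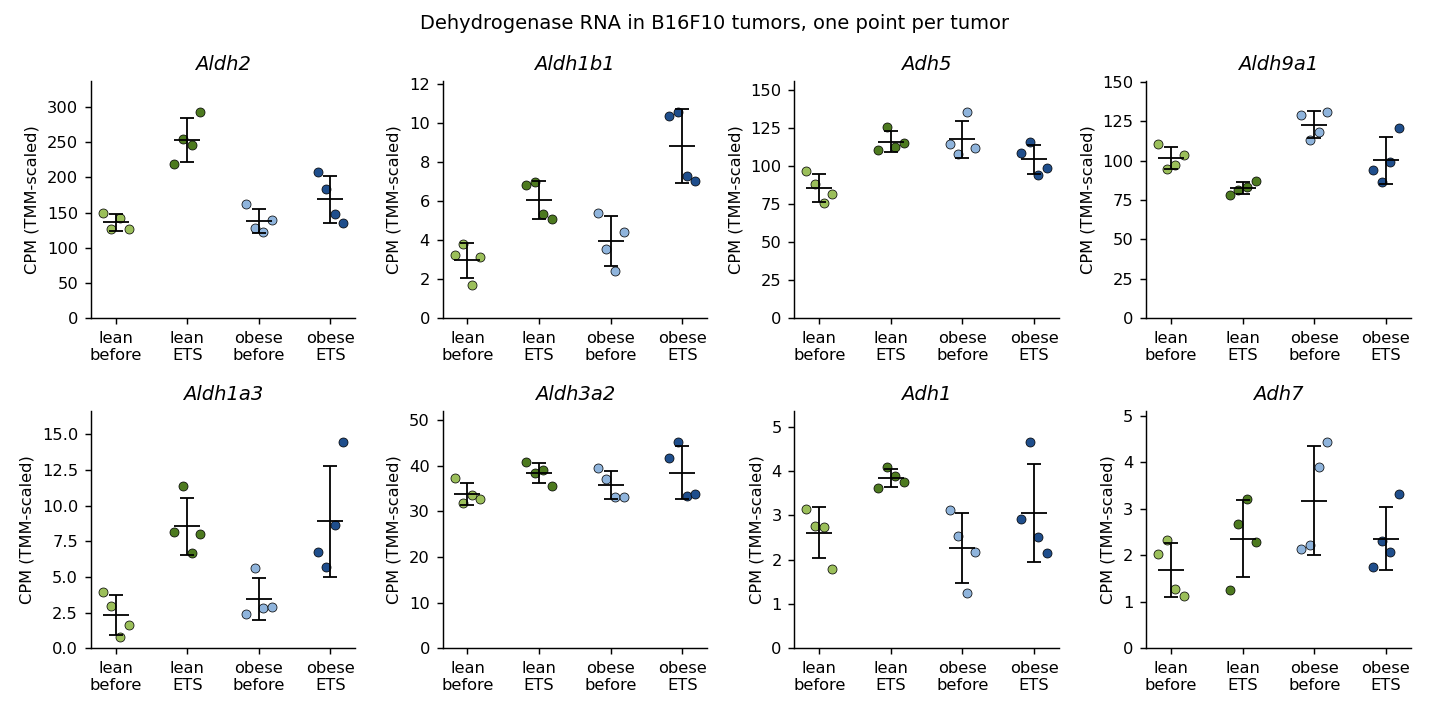
Each point is a tumor, with TMM-scaled CPM on a linear axis that starts at 0, and bars show the mean ± SD of the 4 tumors of a group. Aldh2 separates lean tumors after ETS (218 to 293 CPM) from all other groups (122 to 208 CPM). The mean of Aldh9a1 is lowest in lean tumors after ETS (78.2 to 87.2 CPM), a range that overlaps that of obese tumors after ETS (86.3 to 120.9 CPM).

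Among the members that make retinoic acid from retinaldehyde, Aldh1a3 rose after ETS in both hosts. Lean tumors 1 to 4 had 3.99, 2.98, 0.773 and 1.62 CPM pre-therapy and 8.13, 11.4, 6.70 and 8.0 CPM after ETS, with no overlap, a log2 fold change of 1.87 (SE 0.43, edgeR adjusted p = 0.00327). Obese tumors 1 to 4 had 2.42, 5.62, 2.81 and 2.91 CPM pre-therapy and 6.78, 5.68, 8.67 and 14.5 CPM after ETS. These groups did not overlap either, though tumor 2 pre-therapy and tumor 2 after ETS were nearly level. The log2 fold change in obese tumors was 1.37 (SE 0.43, edgeR adjusted p = 0.0194), and without obese tumor 1, 3 or 4 pre-therapy or tumor 4 after ETS the adjusted p lay between 0.053 and 0.0606. The host difference of the effects had a 95% interval from -0.77 to 1.77, too wide to tell equal from unequal responses.

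Aldh1a1, the other retinaldehyde dehydrogenase of the set, was read at low counts. Lean tumors 1 to 4 had 144, 101, 15 and 35 reads pre-therapy and 30, 71, 0 and 0 reads after ETS, and these groups overlapped. Obese tumors 1 to 4 had 14, 43, 25 and 103 reads pre-therapy and 210, 189, 104 and 330 reads after ETS. After ETS every obese tumor was above every lean tumor (1.66 to 5.78 against 0 to 1.42 CPM, exact permutation p = 0.0286). In the edgeR fit that kept genes with counts of 0, this difference was 2.99 on the log2 scale (SE 1.08) with an adjusted p of 0.162, and the change after ETS in obese tumors was 2.13 (SE 1.04, adjusted p = 0.171). Fibroblast markers summed to 1802, 906.5, 591 and 5646 CPM in obese tumors 1 to 4 after ETS. This was the order of their Aldh1a1 reads but not of their Aldh1a1 CPM (3.81, 3.89, 1.66 and 5.78), where tumor 2 lay above tumor 1. In lean tumors 1 to 4 pre-therapy the sums were 2175, 1593, 514 and 707 CPM, in the order of both reads and CPM of Aldh1a1. In obese tumors pre-therapy the order differed, as tumor 4 had the most reads and 257 CPM, against 592 CPM in tumor 2. The part of fibroblasts in the Aldh1a1 reads was not tested.

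Retinol oxidation, the step before, is carried out by Adh1 and Adh7 among other enzymes. Adh1 was at 3.16, 2.75, 2.74 and 1.80 CPM in lean tumors 1 to 4 pre-therapy and at 3.62, 4.10, 3.88 and 3.75 CPM after ETS. Every tumor after ETS was higher, yet the log2 fold change of 0.56 (SE 0.28) did not pass the test (edgeR adjusted p = 0.12), and it did with edgeR's exact test (0.0418), with only the lean tumors in the fit (0.0435) and with limma-voom (0.0149). In obese tumors Adh1 ranged from 1.24 to 3.12 CPM pre-therapy and from 2.15 to 4.65 CPM after ETS (0.43, SE 0.28, edgeR adjusted p = 0.235).

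Adh7, best known from the epithelium of the upper digestive tract, was a low member of the cluster. It had 2.03, 2.32, 1.28 and 1.13 CPM in lean tumors 1 to 4 pre-therapy and 2.13, 2.23, 3.90 and 4.43 CPM in obese tumors 1 to 4 pre-therapy, with overlap. The log2 difference between hosts was 0.91 (SE 0.34, edgeR adjusted p = 0.0596), which passed the threshold with DESeq2 (0.0322), with limma-voom (0.0317) and without lean tumor 2 pre-therapy (0.0476), lean tumor 1 after ETS (0.0496), obese tumor 1 pre-therapy (0.0429) or obese tumor 2 pre-therapy (0.0446). After ETS it was at 2.36 ± 0.83 CPM in lean and 2.36 ± 0.67 CPM in obese tumors. The ETS effect was 0.48 (SE 0.34, edgeR adjusted p = 0.262) in lean and -0.43 (SE 0.34, adjusted p = 0.33) in obese tumors.

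The neighbours Aldh3a1 and Aldh3a2 oxidise medium- and long-chain aldehydes, the first as a soluble enzyme abundant in the cornea and known as an Ah receptor target, the second as the fatty aldehyde dehydrogenase of the endoplasmic reticulum. Aldh3a1 had 0 reads in all 8 tumors pre-therapy. After ETS lean tumors 1 to 4 had 0, 11, 11 and 13 reads and obese tumors 1 to 4 had 0, 38, 10 and 16 reads, so 6 of 8 treated tumors had reads. Against the 3 reads that a count of 0 over the group allows, the pooled level after ETS was 13.5-fold higher in lean and 20.5-fold higher in obese tumors. The reads after ETS were taken as observed, so these ratios allow for counting error pre-therapy only and are not lower limits. Without obese tumor 2 after ETS, which held 38 of the 64 reads, the ratio in obese tumors was 10.6-fold. The exact permutation p was 0.143 in each host. The edgeR fit that kept genes with counts of 0 called Aldh3a1 after ETS in both hosts. Its log2 fold change was 6.22 in lean (SE 1.87, adjusted p = 0.037) and 7.11 in obese tumors (SE 1.94, adjusted p = 0.0275). With 0 reads in every tumor pre-therapy, the size of these changes is not a measured ratio. The obese tumor with 38 reads was also the tumor in which keratinocyte markers summed to 133 CPM, against 0 CPM in the other 3 obese tumors after ETS and at most 0.04 CPM in lean tumors after ETS. Lean tumor 2 pre-therapy had keratinocyte markers at 7.05 CPM and 0 Aldh3a1 reads. Lean tumors 3 and 4 and obese tumors 3 and 4 after ETS, with 10 to 16 Aldh3a1 reads, had keratinocyte markers at 0. The part of keratinocytes in the Aldh3a1 reads was not tested.

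For Aldh3a2, 4998 bases away, edgeR called no comparison. Its group means were 33.8 ± 2.38 and 38.4 ± 2.21 CPM in lean tumors pre-therapy and after ETS, and 35.7 ± 3.10 and 38.5 ± 5.86 CPM in obese tumors. The log2 fold changes after ETS were 0.18 in lean tumors (SE 0.10, edgeR adjusted p = 0.158), which turned to -0.16 on the log2(TPM + 1) scale and passed the threshold with limma-voom (0.21, adjusted p = 0.0468), and 0.11 in obese tumors (SE 0.10, adjusted p = 0.427).

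**Figure D4:**
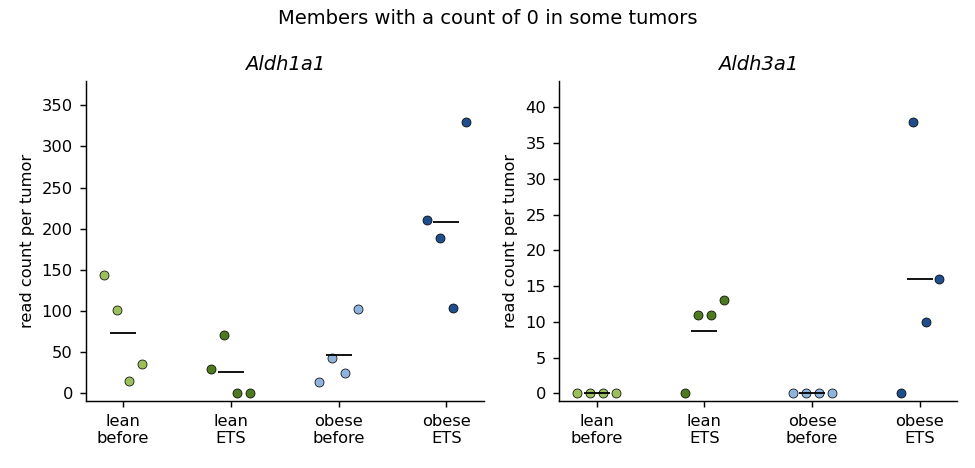
Read counts of Aldh1a1 and Aldh3a1 are plotted for each tumor by group, with a line at the group mean. Aldh1a1 counts in obese tumors after ETS (104 to 330) lie above those in lean tumors after ETS (0 to 71), and Aldh3a1 is at 0 in all tumors pre-therapy.

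Ratios of 2 members within a tumor do not depend on how libraries are scaled, and were taken on read counts per library. The count ratio of Aldh2 to Aldh9a1 ranged from 1.23 to 1.46 in lean tumors pre-therapy and from 2.79 to 3.36 after ETS. In obese tumors it ranged from 1.04 to 1.26 pre-therapy and from 1.12 to 2.22 after ETS. On the log2 scale the means were 0.42 ± 0.11 and 1.61 ± 0.12 in lean tumors, against 0.16 ± 0.13 and 0.75 ± 0.46 in the obese hosts (SD, n = 4), and every lean tumor after ETS lay above every tumor of the other groups. The log2 ratio of Adh5 to Aldh9a1 was -0.25 ± 0.12 pre-therapy and 0.49 ± 0.10 after ETS in lean tumors, against -0.07 ± 0.19 and 0.06 ± 0.32 in obese tumors. The log2 ratio of Aldh2 to Adh5 was 0.67 ± 0.17 and 1.12 ± 0.16 in lean tumors, against 0.23 ± 0.27 and 0.68 ± 0.20 in obese tumors. These ratios compare the same members across groups and give no order of their levels, since counts also follow transcript length.

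TPM scaling moved the balance of the whole table, and the members with it. Of the genes called in lean tumors, 48.0% were higher after ETS with TMM and 15.7% on the log2(TPM + 1) scale, against 52.8% and 43.6% in obese tumors. The share was 38.7% with TMM and 9.24% with TPM for the host difference of effects, 51.0% and 29.0% for obese against lean tumors pre-therapy, and 58.7% and 83.8% after ETS. The median gene shifted by -0.28 in lean and -0.05 in obese tumors after ETS, by -0.16 in the difference, and by 0.10 between hosts after ETS. Relative to that median, the TPM changes in lean tumors were 0.78 for Aldh2, 1.40 for Aldh1a3, 0.80 for Aldh1b1, 0.34 for Adh5 and -0.39 for Aldh9a1, each in the direction found with TMM. The 10 most abundant genes held 6.79 to 8.59% of the counts in lean tumors pre-therapy and 11.2 to 15.3% after ETS, and their part in this shift was not tested.

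Markers of host cells changed with the groups as well. In a bulk tumor, fewer cells of a type and less RNA per cell cannot be told apart, which holds for every value here. Melanocyte lineage markers, 7 genes from Pmel to Sox10, were detected in every tumor and summed to 18070 to 22650 CPM in lean tumors pre-therapy, 22780 to 26070 CPM after ETS, 11170 to 15090 CPM in obese tumors pre-therapy and 10690 to 25090 CPM after ETS. Of these 7 genes, 2 rose after ETS in each host, where 21.0% of all tested genes rose in lean and 21.2% in obese tumors, so the number was near that share. Within obese tumors after ETS, tumors 1 and 2 summed to 25090 and 22650 CPM and tumors 3 and 4 to 13770 and 10690 CPM, in the same order as Aldh2, which ran from 208 to 136 CPM. The orders also matched in lean tumors pre-therapy. They differed in lean tumors after ETS, where tumor 1 had the highest sum (26070 CPM) and the lowest Aldh2 (218 CPM). In obese tumors pre-therapy tumor 2 had the highest sum (15090 CPM) and tumor 1 the highest Aldh2 (162 CPM). The part of melanocyte lineage content in the Aldh2 result was not tested. Without obese tumor 4 after ETS the host difference of the Aldh2 effect was 0.49 (edgeR adjusted p = 0.0838).

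Macrophage markers summed to 329 to 1090 CPM in lean tumors pre-therapy and 45.7 to 346 CPM after ETS, and to 37.0 to 222 CPM in obese tumors pre-therapy and 287 to 883 CPM after ETS. Of 7 macrophage genes 5 fell in lean and 5 rose in obese tumors. Of 6 fibroblast genes 3 fell in lean and 6 rose in obese tumors, with sums of 514 to 2175, 88.7 to 585, 85.9 to 592 and 591 to 5646 CPM in the same order of groups. Of 5 endothelial genes 1 fell in lean and 4 rose in obese tumors. Of all tested genes 22.8% fell in lean and 21.2% rose in obese tumors after ETS. Pre-therapy, 3 melanocyte lineage, 6 macrophage, 1 fibroblast and 3 endothelial genes were lower in obese than in lean tumors and 0 were higher. Of all tested genes 12.9% were lower and 13.5% higher in that comparison. Adipocyte markers summed to 7.66 to 27.8 CPM in lean tumors and 13.4 to 253.5 CPM in obese tumors, and 1 of their 5 genes could be tested, which rose after ETS in obese tumors. Skeletal muscle markers reached 402 CPM in obese tumor 2 after ETS and 313 CPM in lean tumor 1 after ETS and were below 3 CPM in 11 tumors. T and NK cell markers summed to 18.6 to 34.0 CPM in lean tumors pre-therapy and at most 1.49 CPM in any other group, and neutrophil markers to at most 26.5 CPM. The part of any of these cell types in the values of the members was not tested.

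**Figure D5:**
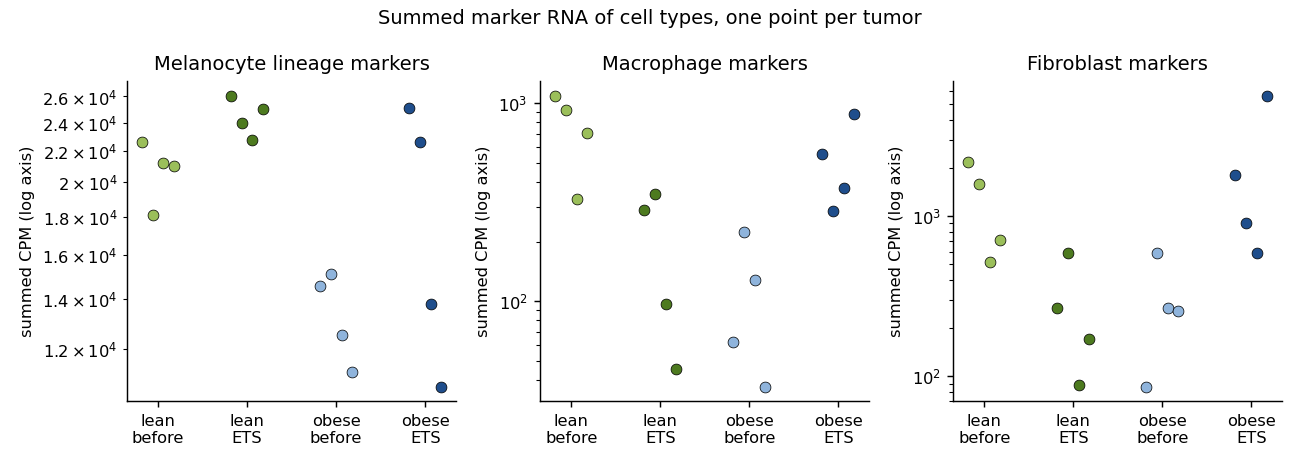
Points give, on log axes, the summed CPM of melanocyte lineage, macrophage and fibroblast markers in each tumor. Macrophage sums were 329 to 1090 CPM before and 45.7 to 346 CPM after ETS in lean tumors and 37.0 to 222 CPM before and 287 to 883 CPM after in obese tumors, and melanocyte sums split the obese tumors after ETS.

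Of 18 further genes of the family, 11 were tested, and the shares of all genes called in each comparison are those given for the members. In lean tumors 4 rose and 1 fell after ETS, and in obese tumors 3 rose and 2 fell, with medians of 0.39 and 0.19 on the log2 scale. Aldh4a1, a mitochondrial enzyme of proline breakdown, rose in both hosts (0.96, SE 0.18, edgeR adjusted p = 0.00061 in lean tumors and 0.79, SE 0.18, adjusted p = 0.0028 in obese tumors), as did the lysine-pathway enzyme Aldh7a1 (0.41 and 0.38). Aldh18a1, which makes the precursor of proline, fell by 0.61 in lean and by 0.72 in obese tumors. For a difference of the ETS effect between hosts, edgeR called 0 of the 11, with 0 at an unadjusted p under 0.05 and 0 by DESeq2 or limma-voom. Between hosts pre-therapy, 2 were higher and 1 lower in obese tumors. Aldh1l2, the mitochondrial enzyme of the folate pathway, was 2.42 higher on the log2 scale (SE 0.45, edgeR adjusted p = 0.00117), at 219 ± 38.5 against 40.7 ± 11.6 CPM, and its cytosolic counterpart Aldh1l1 was lower (45.9 ± 23.8 against 93.9 ± 15.0 CPM, log2 difference -1.03, edgeR adjusted p = 0.0356). After ETS Aldh1l2 was the single called gene of the list, 2.07 higher in obese tumors with a wide spread of 155 ± 142.5 CPM. Adh4 and Adh6a had no read in any of the 16 tumors, and Adh6b, Aldh1a2, Aldh3b2, Aldh3b3 and Aldh8a1 were excluded for counts of 0 in some.

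Of 26 genes that transport, convert or sense retinoids, 16 were tested, of which 3 rose in lean and 5 rose in obese tumors after ETS and 0 fell in either. Over all tested genes 21.0% and 21.2% rose and 22.8% and 19.0% fell, so the number that rose in lean tumors was near the share of all genes. Cyp26b1, which degrades retinoic acid, rose beside Aldh1a3 in both hosts, from 4.74 ± 1.86 to 16.5 ± 3.35 CPM in lean tumors (log2 1.80, SE 0.26, edgeR adjusted p = 9.61e-05) and from 9.20 ± 2.03 to 19.4 ± 3.29 CPM in obese tumors (1.08, SE 0.25, adjusted p = 0.00367). Crabp2, a carrier of retinoic acid, rose in lean tumors (1.78, SE 0.48, adjusted p = 0.00767), and Dhrs3, which returns retinaldehyde to retinol, rose in obese tumors (1.47, SE 0.42, adjusted p = 0.0132). Dhrs3 and Rdh5 were the 2 genes of the list whose ETS effect differed between hosts, both more positive in obese tumors. Of all tested genes 16.4% were called for this difference and 10.1% in this direction, so the number was near the share of all genes. Pre-therapy 3 genes were higher in obese tumors and 1 lower, with Crabp2 first (2.44, SE 0.48, adjusted p = 0.00179). Its levels were low and spread widely in obese tumors, 0.56 ± 0.09 CPM in lean against 3.05 ± 2.59 CPM in obese tumors. After ETS edgeR called 0 of the 16, with 4 at an unadjusted p under 0.05, 1 called by DESeq2, 1 by the exact test and 0 by limma-voom. Of all tested genes 26.4% were called pre-therapy, 13.5% higher and 12.9% lower in obese tumors, and 5.58% between hosts after ETS. The list medians were 0.11 in lean and 0.27 in obese tumors after ETS.

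Of 18 genes that handle alcohols and aldehydes by other routes, 16 were tested. In lean tumors 6 rose and 0 fell, and in obese tumors 6 rose and 2 fell, with medians of 0.25 and 0.29, where 21.0% of all tested genes rose and 22.8% fell in lean and 21.2% rose and 19.0% fell in obese tumors. The aldo-keto reductase Akr1b8 rose from 67.6 ± 13.9 to 134 ± 15.1 CPM in lean tumors (0.99, SE 0.13, edgeR adjusted p = 5.26e-05) and from 102 ± 12.3 to 151 ± 10.6 CPM in obese tumors (0.56, SE 0.13, adjusted p = 0.00356), and Akr1a1 rose by 0.54 and 0.43. The aldehyde oxidase Aox1 rose in obese tumors (0.87, SE 0.20, adjusted p = 0.00382). Pre-therapy 3 genes were higher and 3 lower in obese tumors, led by Akr1b7 (4.33 higher, SE 0.56, adjusted p = 5.64e-05). Akr1b7 was low in both hosts, at 0.19 ± 0.14 CPM in lean and 3.85 ± 1.32 CPM in obese tumors. Gsta4, which conjugates hydroxynonenal, was at 87.2 ± 11.8 CPM in lean and 34.4 ± 10.4 CPM in obese tumors (-1.34, SE 0.33, adjusted p = 0.00726). After ETS Akr1b7 was higher and Gsta4 lower in obese tumors. For the difference of ETS effects only Ptgr1 was called, at -3.41 (SE 0.89, adjusted p = 0.0163). Its levels were low, 2.47 ± 1.86 and 1.17 ± 0.75 CPM in lean tumors pre-therapy and after ETS, and 0.54 ± 0.31 and 2.70 ± 1.35 CPM in obese tumors. The shares of all tested genes called were 26.4% pre-therapy (13.5% higher, 12.9% lower), 5.58% between hosts after ETS and 16.4% for this difference.

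Of 9 Ah receptor genes 6 were tested. In lean tumors edgeR called 0 after ETS, with 2 at an unadjusted p under 0.05, 1 called by DESeq2, 1 by limma-voom and 0 by the exact test, and in obese tumors it called 1, where 43.8% and 40.2% of all tested genes were called. Cyp1b1 rose there from 1.89 ± 2.34 to 18.5 ± 11.8 CPM (3.29, SE 0.91, edgeR adjusted p = 0.0107), differed in ETS effect between hosts (-4.50, SE 1.25, adjusted p = 0.0229) and was higher in obese tumors after ETS (3.72, SE 0.93, adjusted p = 0.0354). The fibroblast markers had medians of 3.08, -4.80 and 2.87 in the same 3 comparisons. The part of fibroblasts in the Cyp1b1 values was not tested. Tiparp was higher in obese tumors pre-therapy (0.58, SE 0.16, adjusted p = 0.0135). Of all tested genes 16.4% were called for the difference of effects, 26.4% between hosts pre-therapy and 5.58% between hosts after ETS. The list medians after ETS were -0.32 in lean and -0.23 in obese tumors.

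For each tested member, the genes with the most similar course over the 16 tumors were sought among 13314 genes whose mean reached 1 CPM, by the root mean square difference of log2 CPM centred on each gene's mean. Aldh2 (own SD 0.40) was closest to Snx1 (0.156), Tkfc (0.158) and Hes6 (0.165). Adh5 (own SD 0.22) was closest to Polr1d (0.0761), Pebp1 and Rpl19. Aldh9a1 (own SD 0.23) was closest to Lrrfip2 (0.0831), Eps15 and Fermt2. Aldh1b1 was closest to Fndc10 (0.281), 1190005I06Rik and Pcolce, and Aldh1a3, with an own SD of 1.06, to S100a16 (0.451), Efs and Pmm1. No other alcohol or aldehyde dehydrogenase was among the nearest 3 of any tested member. Aldh3a2 lay nearest to Rnf185 (0.0601), Adh1 to Pskh1 (0.242) and Adh7 to Fam171a2 (0.314).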

How the data were processed

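RNA of 16 B16F10 tumors was analysed, 4 per group, with the group and number of each tumor taken from the sample labels. The submitters' processing notes name bcl2fastq 2.20.0, Trimmomatic, HISAT2 2.1.0, StringTie 2.1.3b and mm10. Per the study's methods, HISAT aligned the reads and StringTie estimated the abundance of each gene, so the counts derive from StringTie's estimates. The authors deposited whole-number read counts per gene without normalization, and from the same step TPM values, which were used for levels between genes and as an alternative. FPKM values, which the authors also deposited, in 16 columns, were not used. Depth was 47199949 to 61655287 counts per tumor, and intervals and limits from counts cover counting error only.

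Following the study's methods, genes lacking reads in 1 or more tumors (29568 of 45777) were excluded. Counts were scaled by TMM and fitted with edgeR 4.0.16 (R 4.3.3) in a quasi-likelihood model with a mean for each group over all 16 tumors (common biological coefficient of variation 0.233). The 5 comparisons were the ETS effect in lean tumors, the ETS effect in obese tumors, the difference of these effects, and obese against lean tumors pre-therapy and after ETS. Benjamini-Hochberg adjustment ran over all tested genes. In the study's methods 1 was added to every count before the exact test of edgeR. It cannot give the difference of effects and was kept as an alternative for the other comparisons. Further alternatives were DESeq2 1.42.0, limma-voom with a weight estimated for each tumor, and limma on log2(TPM + 1) or log2(TPM + 0.1) (limma 3.58.1). The rest were DESeq2 size factors, other filters on low counts, only the groups compared, a replicate block and the omission of each tumor. Permutation tests were exact and two-sided on log2 CPM with a prior count of 2. No pair of tumors within a group was as alike as sampling noise, with a chi-square per degree of freedom of at least 26.3. The edgeR fit was tested on simulated counts with known fold changes.

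All 10 members are named. Of each list (other family members, retinoid genes, other aldehyde and alcohol handling, Ah receptor genes) the genes named come from the 3 with the lowest adjusted p in a comparison. Cell type markers were listed for melanocyte lineage, macrophage, fibroblast, endothelium, adipocyte, skeletal muscle, keratinocyte, T and NK cell, and neutrophil. The members and lists were chosen with earlier results of these data known. Coordinates and promoter sequences are RefSeq's for GRCm38.p6. Whether counting used the strand is not given in the sources used here.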

Additional observations from a re-analysis of the deposited data

Results flagged for a closer look

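The ETS effect of Adh5 was 0.61 higher on the log2 scale in lean than in obese tumors, and that of Aldh2 was 0.60 higher (0.604), both by the test of the difference itself (edgeR adjusted p = 0.00619 and 0.0406). In lean tumors the log2 fold change was 0.44 for Adh5 and 0.90 for Aldh2, against -0.17 and 0.29 in obese tumors, and pre-therapy Adh5 was already higher in obese tumors by 0.46.

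Obese tumor 2 pre-therapy had the highest Aldh1a3 level of its group, 5.62 CPM, with the next tumor at 2.91 CPM, a gap that took 0.846 of the range of the group. Lean tumor 1 after ETS had 0.0 CPM of Aldh3a1, with the next tumor of its group at 0.197 CPM and a gap of 0.865 of the range. Each gap was above Dixon's 95% critical value for 4 samples. Over the 38 sets of a member and a group that were checked, chance alone flags about 1 in 20, or 1.9, so these 2 are about what chance gives.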

How the results depend on the processing

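The Adh5 difference between hosts and the rises of Aldh2, Aldh1b1 and Aldh1a3 in lean tumors kept their direction and their call under every alternative that gave them. Without the exclusion of counts of 0, 6 of 10 members were called after ETS in lean and 4 of 10 in obese tumors. Of all genes tested there, 23.4% and 20.1% were called. Of the members called pre-therapy, 1 was left in place of 2 with DESeq2 size factors, without the exclusion of counts of 0, and on the log2(TPM + 1) and log2(TPM + 0.1) scales. For the difference of ETS effects, 1 was left in place of 2 without that exclusion, on both TPM scales, and without obese tumors 1 and 2 pre-therapy, the libraries of the lowest totals (an alternative chosen after seeing the data). After ETS, 0 members were called with only the groups compared and 2 with the replicate block, in place of 1. Leaving out each tumor in turn, the members called ranged from 4 to 5 in lean tumors, 1 to 3 in obese tumors, 1 to 2 for the difference, 1 to 3 pre-therapy and 0 to 2 after ETS. The only reversed single value was Aldh3a2 in lean tumors, at -0.16 on the log2(TPM + 1) and -0.17 on the log2(TPM + 0.1) scale. The cause of these changes was not tested. Without the exclusion 28754 genes were tested in place of 16209, and the estimates and their standard errors changed as well. The 17 member values given only as ranges changed sign in 55 of 447 refits, 0 of them with an adjusted p under 0.05.

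Tumors with the same number in a host did not all deviate together: the correlation of deviations across genes was between 0.0326 and 0.452 in lean and between -0.0271 and 0.198 in obese tumors, and 2 of 8 lean and 5 of 8 obese tumors correlated best with the tumor of their own number. With some pairs under 0.1, the numbers were not taken to pair the samples. With the replicate block, Aldh9a1 was called after ETS (0.27, edgeR adjusted p = 0.0457), no other call of a member changed, and 1683 of all genes were called between hosts after ETS against 904 without it. That number was 66 with only the groups compared, 450 without the exclusion, 2078 with DESeq2, and 186 to 1347 when a tumor was left out. Depth limits Aldh1a1, with 0 reads in 2 of 4 lean tumors after ETS, and Aldh3a1, with 35 reads over the same 4 tumors.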
